A study of Canis lupus familiaris with 4 samples.

Results

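Homeobox and T-box transcription factor genes were compared between ductal carcinoma of the canine mammary gland and non-tumor tissue beside it. The members were chosen by symbol alone, as every gene of the count tables whose symbol places it in the HOX, MEIS, PBX, Iroquois, TBX, sine oculis, DLX, MSX, LIM homeobox, PITX, PAX, ALX, NKX, engrailed, BARX, SHOX, ZFHX, SATB, CUX or teashirt families. This rule found 33 of the 11277 genes. In the RefSeq gene table of the dog assembly UU_Cfam_GSD_1.0 the same rule matches 132 symbols, and the other 99 were not analysed here. By the study's account the genes it identified were only a part of the reference set. All genes of the count tables passed the low-count filter used here. Absent symbols may thus have been dropped before the tables were made, which was not tested. No symbol of the DLX, MSX, PITX, PAX, NKX, engrailed or SHOX families was found, but 1148 features carry only an Ensembl identifier and could not be judged by symbol.

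The tissue came from 6 intact female dogs of several breeds, 5 to 14 years old, operated on for early-stage primary tumors. Carcinoma RNA (libraries T1 and T2) and RNA of the neighbouring non-tumor tissue (the control, C1 and C2) was pooled from 3 dogs per library, and by the study's account same-numbered libraries came from the same dogs. The control is thus tissue of tumor-bearing animals, and the spread between libraries is a spread between pools and not between single dogs. Library totals were 32352002 and 4027367 counts in control and 35496260 and 3236218 in carcinoma, where, as in all such pairs of values below, pool 1 (C1, T1) comes first and pool 2 (C2, T2) follows. In the shallower libraries a single count was worth 0.232 (C2) and 0.297 (T2) CPM, that is, counts scaled to library size after TMM (trimmed mean of M values) normalization, the unit of every level below.

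Homeobox genes encode transcription factors that bind DNA through a small helical domain, the homeodomain, and T-box genes encode factors with a larger DNA-binding domain of their own. Both kinds pattern the embryo, and many stay on in adult tissue, where the combination of factors differs between epithelium, connective tissue, muscle and vessels. HOX proteins bind DNA together with PBX and MEIS proteins, SIX4 and its relatives act with EYA and DACH proteins, and TBX3 is known for its part in the formation of the mammary bud.

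Of the 33 genes, 6 were higher in carcinoma, 9 were lower and 18 did not pass. A gene was called by edgeR's quasi-likelihood test at an adjusted p under 0.05 (Benjamini-Hochberg over all genes) and a log2 change between the groups of 1 or more in either direction. The 15 called genes are 45.5% of the members, against 9.86% of all genes tested. By direction the members had 18.2% called higher, against 4.62% of all genes, and 27.3% called lower, against 5.24%. Among those that rose were HOXA5, LMX1B, HOXA3, PBX4 and SIX4. ALX4, TBX15, ZFHX4, TBX18, HOXD8, SATB1, MEIS1, BARX2 and MEIS2 fell. The median absolute log2 fold change was 1.09 over the members and 0.34 over all genes, and the median signed value was 0.26 over the members and 0.03 over all genes. Carcinoma and control did not overlap for 30 members, 16 with carcinoma above and 14 with carcinoma below, which is 90.9% against 57.6% of all genes.

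**Figure D1:**
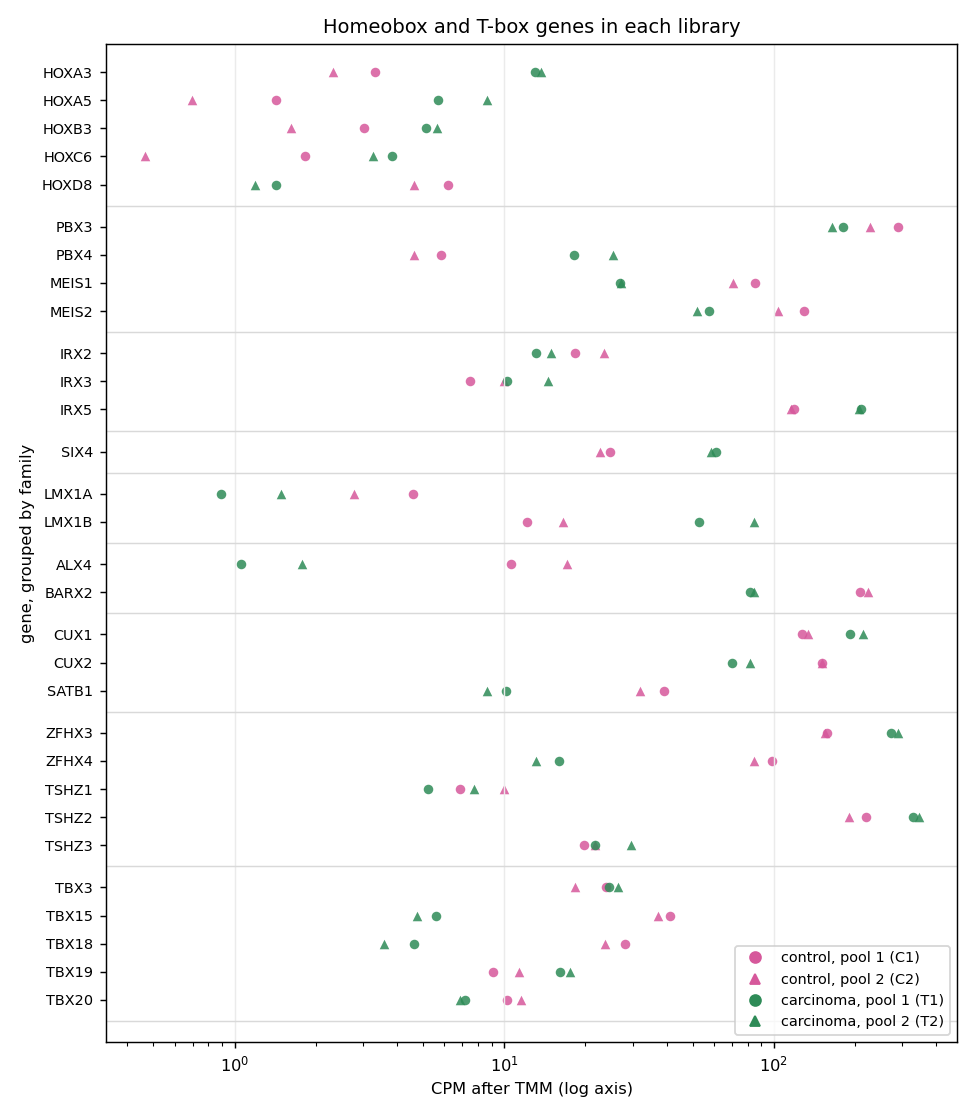
CPM after TMM (log axis) of 30 of the homeobox and T-box genes, grouped by family, with 1 symbol per library. Control is pink and carcinoma green, and circles are pool 1 and triangles pool 2. LMX1B lies between 12.1 and 16.5 CPM in control and between 52.6 and 84.5 CPM in carcinoma, and TBX15 moves the other way.

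**Figure D2:**
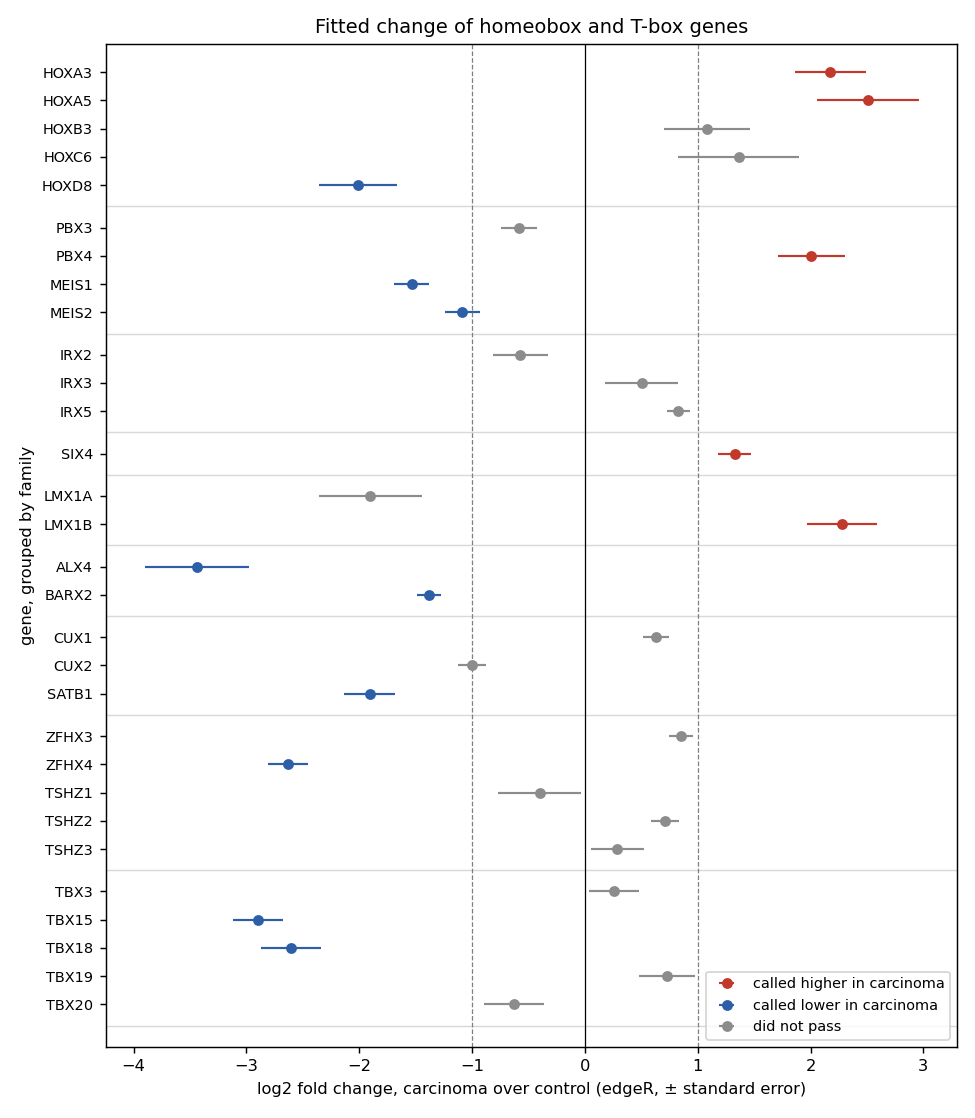
Log2 change fitted by edgeR (carcinoma over control) for the same genes, with bars of ± 1 standard error and dashed lines at the threshold of 1 in either direction. Red points were called higher, blue points lower, and gray points did not pass; HOXA5 is the highest of those drawn at 2.51 and ALX4 the lowest at −3.44.

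The tissue was checked against cell markers, which also moved between the groups. Epithelial genes were present in all libraries: of 14 luminal markers 9 were measured, none at 0. Their summed level was 1670 to 1805 CPM in control and 1279 to 1344 CPM in carcinoma. Of these markers 3 were lower (ESR1, ELF5 and PGR) and 6 did not pass. Log2 fold changes of these 6 were −0.83 for FOXA1, −0.32 for EPCAM, 0.04 for CDH1, 0.22 for KRT19, 0.23 for GATA3 and 0.85 for ELF3. Of 10 fibroblast markers 9 were measured, none at 0, at 7474 to 8379 CPM in control and 2811 to 3646 CPM in carcinoma, and 5 were lower. Of 18 striated muscle markers 11 were measured, at 2018 to 3142 CPM in control and 42.1 to 72.3 CPM in carcinoma, with 10 lower and MYL3 at 0 in both carcinoma libraries. Of 14 cartilage markers 12 were measured and 7 were higher, with a summed level of 374 to 375 CPM in control and 2662 to 2896 CPM in carcinoma. Lymphatic endothelial markers summed to 952 to 1147 CPM in control and 198 to 209 CPM in carcinoma, with 5 of 6 lower. Blood endothelial markers summed to 758 to 765 CPM in control and 385 to 404 CPM in carcinoma, with 4 of 7 lower, and T and NK cell markers to 92.0 to 104 CPM in control and 25.9 to 26.3 CPM in carcinoma, with 5 of 8 lower (8 of 8 in the fit that adds pool as a replicate block). In bulk tissue fewer cells of a type and less RNA per cell cannot be told apart, and the part of these shifts in the results below was not tested.

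HOX genes, which set position along the body axis in the embryo and are kept by many adult stromal and epithelial cells, had few counts and moved in both directions. Of the 38 HOX symbols in RefSeq 5 were measured, with 2 higher, 1 lower and 2 short of the threshold. HOXA3 was at 3.32 and 2.32 CPM in control and 13.0 and 13.7 CPM in carcinoma. Both carcinoma libraries lay well above both controls, with a log2 change of 2.17 (standard error, SE, 0.32, edgeR adjusted p = 0.0135). HOXA5, a gene known for its part in lung and mammary gland development, was at 1.42 and 0.695 CPM in control and 5.69 and 8.62 CPM in carcinoma. Its log2 change was 2.51 (SE 0.45, edgeR adjusted p = 0.0253), and C2 held only 3 counts of it. In pool 2 the HOXA5 ratio of carcinoma to control was 12.4, with a 95% interval of 3.84 to 63.6 that covers counting error only. The HOXA5 call depended on the controls, with an adjusted p by edgeR of 0.0613 without C1 (log2 fold change 3.24) and 0.0555 without C2.

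HOXD8 went the other way, at 6.16 and 4.64 CPM in control and 1.43 and 1.19 CPM in carcinoma, with no overlap between the groups. Its log2 change was −2.01 (SE 0.35, edgeR adjusted p = 0.0228). T2 held 4 counts of HOXD8, and the call was lost by DESeq2 (adjusted p = 0.0549), without C1 (0.1249), without T1 (0.0868) and without T2 (0.0609). HOXB3 had a log2 change of 1.08 (SE 0.38, edgeR adjusted p = 0.143) and HOXC6 of 1.36 (SE 0.53, edgeR adjusted p = 0.177), neither past the threshold. HOXC6, with 2 counts in C2, was called higher once the pool number entered as a replicate block (log2 fold change 1.21, adjusted p = 5.77e-05 by edgeR). Within a library the counts of related genes can be set against each other without any scaling; such a ratio also carries the genes' lengths, so only its change between libraries is read here. HOXA3 had 98 and 10 counts in control beside 182 and 20 of HOXD8, and 453 and 46 counts in carcinoma beside 50 and 4, so that the ratio reached 9.06 and 11.5 in carcinoma, an increase in both pools. In RefSeq the spans of HOXA3 and HOXA5 overlap, as those of HOXB3 and HOXC6 overlap other HOX genes, so reads of these neighbours may not be fully separable.

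PBX and MEIS proteins are the DNA-binding partners of HOX proteins, and their genes moved in both directions. PBX4 was higher, and MEIS1 and MEIS2 were lower. PBX4 was at 5.82 and 4.64 CPM in control and 18.2 and 25.3 CPM in carcinoma. It rose by 2.01 on the log2 scale (SE 0.30, edgeR adjusted p = 0.0148), or with an adjusted p of 0.0558 without C1. PBX3 lay lower in both carcinoma libraries, at 290 and 227 CPM in control and 181 and 164 CPM in carcinoma, with a log2 change of −0.58 (SE 0.16, edgeR adjusted p = 0.0772).

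MEIS1, known for its role in blood stem cells and developing limbs, was at 85.5 and 70.5 CPM in control and 27.0 and 27.1 CPM in carcinoma. The carcinoma libraries were nearly equal, and the log2 change was −1.53 (SE 0.16, edgeR adjusted p = 0.00541). MEIS2 was at 129 and 103 CPM in control and 57.7 and 51.7 CPM in carcinoma, a log2 change of −1.09 (SE 0.15, edgeR adjusted p = 0.0129). Without C1 the MEIS2 value was −0.96, just under the fold threshold. The ratio of PBX4 to PBX3 counts was 0.0201 and 0.0204 in control and 0.101 and 0.154 in carcinoma. The ratio of MEIS2 to MEIS1 went from 1.51 and 1.47 in control to 2.14 and 1.91 in carcinoma.

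SIX4, a homeodomain factor of muscle, kidney and sensory organ development, rose. SIX4 was at 24.8 and 22.7 CPM in control and 61.2 and 58.3 CPM in carcinoma, a log2 change of 1.33 (SE 0.15, edgeR adjusted p = 0.00679). Both carcinoma libraries lay well above both controls. Per kilobase of the length listed in the tables, SIX4 went from 1.86 and 1.71 CPM per kb in control to 4.59 and 4.38 in carcinoma. Beside this rise, 10 of the 11 striated muscle markers measured were lower in carcinoma, and the other, TNNI2, did not pass, at 18.3 and 23.2 CPM in control and 16.1 and 41.9 CPM in carcinoma.

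The partners of SIX4 and its relatives did not move as a block. EYA proteins are coactivators of these factors and DACH proteins are mostly corepressors. EYA1 was at 8.20 and 4.40 CPM in control and 116 and 104 CPM in carcinoma, a log2 change of 4.004 (SE 0.29, edgeR adjusted p = 0.00263). EYA2 was at 57.1 and 55.4 CPM in control and 190 and 203 CPM in carcinoma, a log2 change of 1.80 (SE 0.11, edgeR adjusted p = 0.00196). EYA4 fell from 26.3 and 23.4 CPM in control to 3.66 and 5.06 CPM in carcinoma, a log2 change of −2.58 (SE 0.28, edgeR adjusted p = 0.00624), and EYA3 had a log2 fold change of −0.02. DACH1 fell from 128 and 104 CPM in control to 36.1 and 30.9 CPM in carcinoma, a log2 change of −1.78 (SE 0.16, edgeR adjusted p = 0.00428). DACH2 had a log2 change of −0.79 (SE 0.46, edgeR adjusted p = 0.326) and did not pass. EYA1 and EYA2 thus rose with SIX4, while EYA4 and DACH1 fell, and the groups did not overlap for any of these genes.

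**Figure D3:**
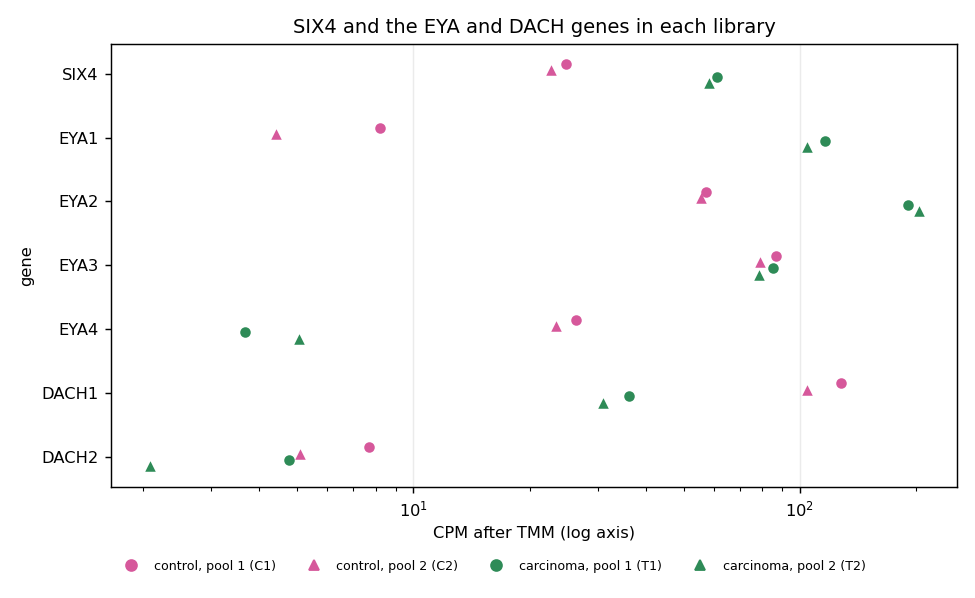
CPM after TMM (log axis) of SIX4 and the EYA and DACH genes, with 1 symbol per library (control pink, carcinoma green, circles pool 1, triangles pool 2). The carcinoma symbols lie to the right of control for SIX4, EYA1 and EYA2, on top of control for EYA3, and to the left for EYA4 and DACH1.

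LMX1B and LMX1A, which encode LIM homeodomain proteins of limb, kidney and brain development, had log2 changes of opposite sign, of which that of LMX1B passed. LMX1B was at 12.1 and 16.5 CPM in control and 52.6 and 84.5 CPM in carcinoma, a log2 change of 2.28 (SE 0.31, edgeR adjusted p = 0.0111). LMX1A was at 4.57 and 2.78 CPM in control and 0.887 and 1.49 CPM in carcinoma, a log2 change of −1.90 (SE 0.46, edgeR adjusted p = 0.0572), and did not pass. With the replicate block LMX1A was called lower (log2 fold change −2.17, adjusted p = 4.43e-11 by edgeR). T2 held only 5 counts of LMX1A, and its ratio of carcinoma to control in pool 2 was 0.535 with a 95% counting interval of 0.148 to 1.63. The ratio of LMX1B to LMX1A counts was 2.65 and 5.92 in control and 59.3 and 56.8 in carcinoma. In RefSeq LMX1B lies beside PBX3 with 1 protein-coding gene between, and the ratio of LMX1B to PBX3 counts went from 0.0418 and 0.0724 in control to 0.291 and 0.514 in carcinoma.

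ALX4 and BARX2 both fell. ALX4 encodes a paired-like factor of mesenchyme in limb and skull, and BARX2 a Bar-class factor of epithelia, muscle and cartilage that has been studied in breast cancer cells. ALX4 was at 10.6 and 17.2 CPM in control and 1.06 and 1.78 CPM in carcinoma, the largest fall of the 33 genes, with a log2 change of −3.44 (SE 0.46, edgeR adjusted p = 0.0110). T2 held 6 counts of ALX4, and the pool 2 ratio of carcinoma to control was 0.104 with a 95% counting interval of 0.0370 to 0.237. BARX2 was at 209 and 224 CPM in control and 81.8 and 84.2 CPM in carcinoma. The libraries of each tissue lay close together, and its log2 change was −1.38 (SE 0.11, edgeR adjusted p = 0.00324). In the same libraries cartilage markers as a list were higher and striated muscle markers were lower. Of the luminal epithelial markers 3 were lower and 6 did not pass.

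CUT class genes encode homeodomain proteins with extra DNA-binding domains. SATB1, a chromatin organizer of T cells and epithelia, was at 39.2 and 31.99 CPM in control and 10.2 and 8.62 CPM in carcinoma. Its log2 change was −1.91 (SE 0.23, edgeR adjusted p = 0.00798). T and NK cell markers were lower in the same libraries, and of the luminal epithelial markers 3 were lower and 6 did not pass.

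CUX1 and CUX2 had log2 changes of opposite sign, both under the fold threshold. CUX1, a widely expressed factor of cell cycle and differentiation genes, was at 127 and 134 CPM in control and 191 and 213 CPM in carcinoma, a log2 change of 0.63 (SE 0.12, edgeR adjusted p = 0.0275). CUX2 was at 151 and 151 CPM in control and 70.1 and 81.8 CPM in carcinoma. Its log2 change was −0.9987 (SE 0.12, edgeR adjusted p = 0.00886), just short of the fold threshold. CUX2 was called lower by DESeq2 (log2 fold change −1.02), with the replicate block (−1.04, adjusted p = 2.60e-33 by edgeR), with DESeq2 size factors, with at least 10 counts in every library and without C1, C2 or T2. The ratio of CUX1 to CUX2 counts was 0.843 and 0.888 in control and 2.73 and 2.61 in carcinoma.

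The zinc finger homeobox genes ZFHX3 and ZFHX4 encode very large proteins with many zinc fingers and several homeodomains. ZFHX4 was at 98.9 and 84.4 CPM in control and 16.0 and 13.1 CPM in carcinoma, a log2 change of −2.63 (SE 0.18, edgeR adjusted p = 0.00249). ZFHX3, known as a tumor suppressor in prostate, was at 157 and 155 CPM in control and 272 and 289 CPM in carcinoma. Its log2 change was 0.85 (SE 0.11, edgeR adjusted p = 0.00927), under the fold threshold although the groups lay apart. The ratio of ZFHX3 to ZFHX4 counts was 1.59 and 1.83 in control and 17.0 and 22.1 in carcinoma. Of the teashirt genes, which encode zinc finger repressors, TSHZ2 was at 220 and 191 CPM in control and 329 and 345 CPM in carcinoma, with a log2 change of 0.71 (SE 0.12, edgeR adjusted p = 0.0237). TSHZ1 and TSHZ3 had log2 fold changes of −0.40 and 0.28, with overlapping groups.

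**Figure D4:**
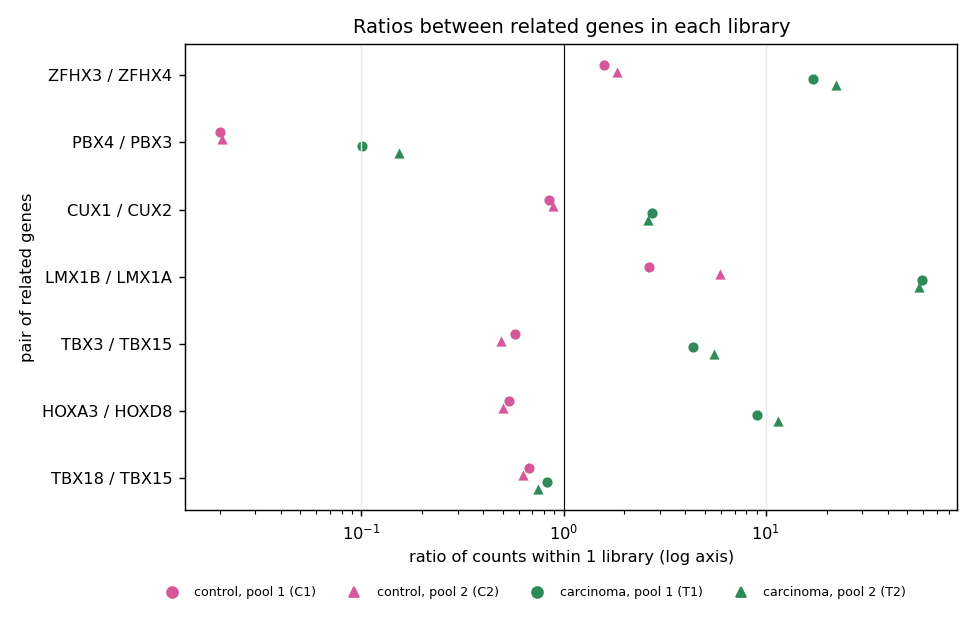
Ratio of the counts of related genes within each library (log axis), which no scaling between libraries can change, for 7 pairs chosen after their values were seen. Control is pink and carcinoma green, circles are pool 1 and triangles pool 2. ZFHX3 over ZFHX4 moves from 1.59 and 1.83 in control to 17.0 and 22.1 in carcinoma, while TBX18 over TBX15 stays between 0.634 and 0.831.

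T-box genes were lower or did not pass. TBX15 and TBX18, closely related factors of mesenchyme in skin, limb, muscle and vessel walls, fell together. TBX15 was at 41.4 and 37.3 CPM in control and 5.58 and 4.76 CPM in carcinoma, a log2 change of −2.90 (SE 0.22, edgeR adjusted p = 0.00293). TBX18 was at 28.04 and 23.6 CPM in control and 4.64 and 3.57 CPM in carcinoma, a log2 change of −2.61 (SE 0.27, edgeR adjusted p = 0.00543). Their ratio, TBX18 to TBX15, moved little, at 0.678 and 0.634 in control and 0.831 and 0.750 in carcinoma. Fibroblast and striated muscle markers were lower in the same libraries.

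TBX3, which is needed for the mammary bud, was at 23.8 and 18.3 CPM in control and 24.4 and 26.5 CPM in carcinoma. Its log2 change of 0.26 (SE 0.22, edgeR adjusted p = 0.496) did not pass, and the pools differed, with a log2 ratio of carcinoma to control of 0.04 in pool 1 and 0.53 in pool 2. TBX19, known for pituitary development, had a log2 change of 0.73 (SE 0.25, edgeR adjusted p = 0.137), and TBX20, known for the heart, one of −0.63 (SE 0.27, edgeR adjusted p = 0.201). Neither passed, although their groups did not overlap. The ratio of TBX3 to TBX15 counts was 0.575 and 0.491 in control and 4.38 and 5.56 in carcinoma.

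None of the 3 Iroquois genes was called (edgeR, 1 at an unadjusted p under 0.05 and 0 called by DESeq2). Iroquois proteins are homeodomain factors that pattern heart, limb and nervous system. IRX5 was at 119 and 116 CPM in control and 210 and 206 CPM in carcinoma, with very little spread, a log2 fold change of 0.83 (SE 0.10) and an adjusted p of 0.00922 by edgeR, short of the fold threshold. IRX3 had a log2 fold change of 0.50 (SE 0.33) and IRX2 one of −0.57 (SE 0.24). The IRX5 length in the tables is 20.03 times its span in RefSeq, so its counts may come from more than the gene as RefSeq draws it. The ratio of IRX3 to IRX2 counts was 0.410 and 0.426 in control and 0.778 and 0.980 in carcinoma.

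Both pools of dogs gave the same picture for nearly every member. The log2 ratio of carcinoma to control had the same sign in pool 1 and pool 2 for all 30 members described here. The share over all genes was not counted. It is at least the 57.6% of genes whose groups did not overlap, since these must have the same sign. Across these genes, which share the libraries and are not independent replicates, the ratios of the pools had a Pearson correlation of 0.963 and a Spearman correlation of 0.971. The largest gap between pools was 1.75 on the log2 scale, for HOXC6, with 1.07 in pool 1 and 2.82 in pool 2, followed by HOXA5 with 2.00 and 3.63. LMX1A had −2.37 in pool 1 and −0.90 in pool 2. These 3 genes were among the 10 members with fewer than 20 counts in at least 1 library.

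**Figure D5:**
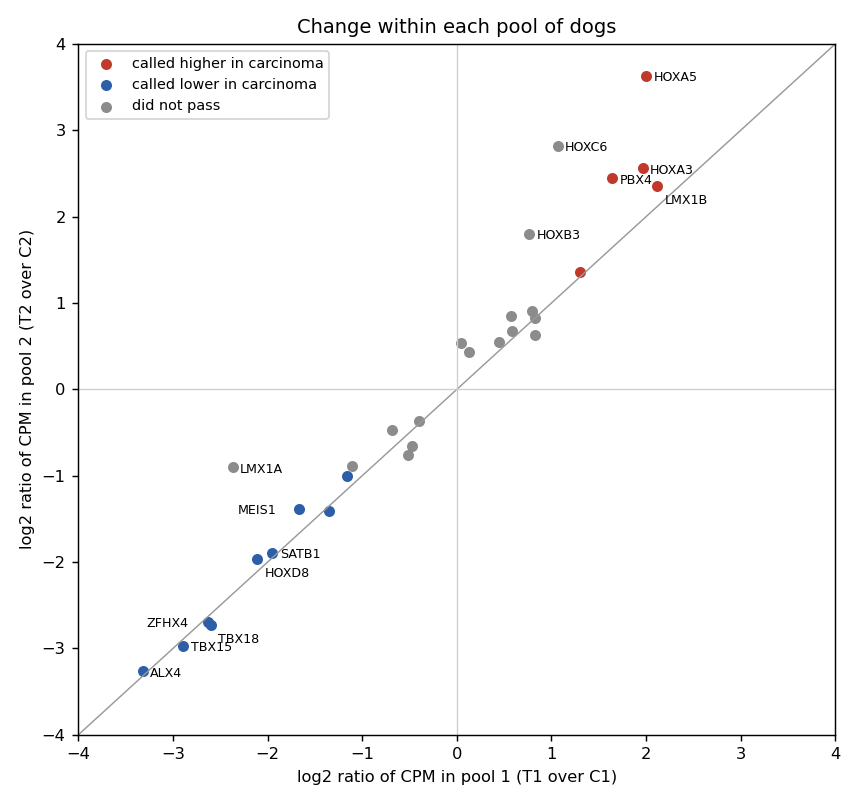
Log2 ratio of carcinoma to control CPM in pool 1 (x axis) and pool 2 (y axis), with 1 point per gene and the diagonal drawn in gray. The points follow the diagonal (Pearson correlation 0.963 across the 30 genes), and HOXC6, HOXA5, HOXB3 and LMX1A lie farthest above it.

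Levels can be set beside each other only per length. Per kilobase of the listed length, HOXD8 (6.10 in C1 and 4.59 in C2), IRX2 (3.20 and 4.11) and BARX2 (2.90 and 3.11) were the highest members in control, and the lower IRX2 value lay just above the higher BARX2 value. In carcinoma the members described here were led by SIX4, IRX3 (2.60 in T1 and 3.71 in T2) and IRX5 (3.12 and 3.05), and IRX3 and IRX5 overlapped. LMX1A was the lowest member in both tissues. The listed lengths include introns for most members, and for HOXB3, TSHZ1 and HOXC6 they come to only 0.0583, 0.0666 and 0.110 of the RefSeq span. For IRX5 the listed length is 20.03 times that span, so its place in particular, and this order in general, depends on the gene models.

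Genes that work with these factors were taken as lists of known partners and regulators. Of 19 measured cofactor genes (22 listed) of homeodomain and T-box proteins, 2 were higher (EYA1 and EYA2), 4 were lower and 13 did not pass. Over all genes 4.62% were called higher and 5.24% lower. Besides EYA4 and DACH1, those lower were LDB2, which encodes an adaptor of LIM homeodomain proteins (log2 fold change −1.30, SE 0.11, edgeR adjusted p = 0.00383), and TLE1, which encodes a Groucho corepressor (−1.26, SE 0.12, edgeR adjusted p = 0.00483). LDB1, the other LIM adaptor gene, had a log2 fold change of 0.34 and did not pass. The other TLE genes measured had log2 fold changes of 1.08 (TLE3), 0.49 (TLE4) and 0.34 (TLE2), and none of them passed. TLE3 was called higher by DESeq2 and with the replicate block. The median over the list was 0.21.

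Chromatin regulators of the Polycomb and Trithorax groups are known to act on HOX clusters. Of 25 measured genes (30 listed) 1 was higher, against 4.62% of all genes, none was lower (edgeR, 2 lower at an unadjusted p under 0.05 and 0 by DESeq2) and the median log2 fold change was 0.04. The gene called was PHC2, which encodes a Polycomb subunit (log2 fold change 1.02, SE 0.13, edgeR adjusted p = 0.0102), and its value fell under the fold threshold without C1 (0.89) and without T2 (0.91). EZH2, the Polycomb methyltransferase gene, had a log2 change of −0.54 (SE 0.15, edgeR adjusted p = 0.0770), and KMT2A, which encodes a methyltransferase that keeps HOX genes active, one of 0.09.

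Retinoic acid switches on HOX genes in the embryo. Of 14 measured genes of its axis (18 listed) 2 were higher, against 4.62% of all genes. RARB, a retinoic acid receptor gene, was at 21.8 and 24.1 CPM in control and 71.6 and 68.7 CPM in carcinoma (log2 fold change 1.62, SE 0.14, edgeR adjusted p = 0.00405). CYP26B1, which encodes an enzyme that breaks retinoic acid down, was at 1.42 and 1.16 CPM in control and 9.19 and 14.6 CPM in carcinoma (log2 fold change 3.11, SE 0.40, edgeR adjusted p = 0.00964). None of the 14 was called lower by edgeR without the replicate block (1 was at an unadjusted p under 0.05, and DESeq2 called 1). With the block edgeR called 3 higher and 1 lower, adding RXRG, a retinoid X receptor gene (adjusted p = 6.07e-07), and STRA6, which encodes a retinol uptake receptor (adjusted p = 1.07e-16). The median log2 fold change over the list was 0.43.

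Signals of the mammary bud, where TBX3 acts in the embryo, split in direction. Of 9 measured genes (15 listed) 3 were higher, 2 were lower and 4 did not pass, against 4.62% of all genes higher and 5.24% lower. FGF10, the ligand gene of limb and mammary bud growth, fell from 98.9 and 69.8 CPM in control to 10.4 and 6.25 CPM in carcinoma (log2 fold change −3.25, SE 0.31, edgeR adjusted p = 0.00474). PTHLH, which encodes a parathyroid hormone-like ligand, had a log2 change of −1.58 (SE 0.19, edgeR adjusted p = 0.00800). LEF1, a Wnt pathway factor, rose from 25.2 and 23.4 CPM in control to 249 and 230 CPM in carcinoma. BMP2 and NRG3 were also called higher, with log2 fold changes of 1.25 (adjusted p = 0.0327 by edgeR) and 2.08 (adjusted p = 0.0379). The BMP2 call was lost whichever of the 4 libraries was left out (adjusted p 0.111 to 0.196) and that of NRG3 without C2 (0.0658) or without T1 (0.0643).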

How the data were processed

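RNA of 4 pooled libraries was sequenced after preparation with a stranded total RNA kit. The authors deposited raw whole-number counts for each gene, beside the gene length. By the study's methods reads were aligned by TopHat2 and counted by HTSeq at its defaults, which count by strand, whereas the submitters' processing notes list FastQC, STAR, featureCounts and DESeq2. Neither the genome build nor the strand setting of featureCounts is given in the sources used here. Hence no coordinates are printed, and it is not known how reads of overlapping genes were assigned. Counts were fitted over all 11277 genes, all of which passed filterByExpr, in R 4.3.3 with edgeR 4.0.16 (TMM, quasi-likelihood test, group as the only term), and the standard error (SE) was taken as the size of the log2 change over the root of F. DESeq2 1.42.0 was an alternative. An exact permutation test (two-sided) on 2 against 2 libraries has 0.333 as its smallest p, so calls rest on the spread shared across genes. With group as the only term, p-values measure the spread between pools and take no account of the shared dogs. The pools also differ in depth and, by the study's account, in mean age, with the older dogs on average in pool 1.

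Same-numbered libraries share dogs by the study's account. After subtraction of group means their values correlated at 0.802 over all genes and 0.389 over the members (log2 of CPM plus 0.5). Same-numbered libraries were also alike in depth, so shared dogs and depth cannot be told apart in these correlations. The part of each was not tested. The fit that adds pool as a replicate block has 1 residual degree of freedom, so its p-values rest on the dispersion shared across genes. Libraries of 1 group were not alike within sampling noise (chi-square over its degrees of freedom 46.0 for control, 31.7 for carcinoma). Only the edgeR fit without and with the block and DESeq2 were tried on simulated counts. Those counts held no effect shared by same-numbered libraries, so they cannot show how the block fit behaves with such an effect.

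Of the 33 members, 3 are counted in the totals but not reported here. The members, their families, the 17 gene lists and the tests were chosen with earlier results of these data known. Named genes are every called member with its value in each library, the most abundant member of each family, members short of the call by fold or p alone or called only by the block or DESeq2, close paralogs, and the 4 called genes of each related list with the smallest adjusted p. The further genes of these lists, and the pairs set in ratio, were chosen with their values in view. Ratio intervals are exact binomial (95%). Alternatives were library totals and DESeq2 size factors as scaling, DESeq2, no filter, at least 10 counts in every library, the block, and leaving out each library. Since all genes passed filterByExpr, the fit with no filter repeats the main fit and could not change a call. Matplotlib 3.10.9 drew the figures.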

Additional observations from a re-analysis of the deposited data

How the results depend on the processing

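Of the 15 called members, 11 kept their call under every alternative that could be fitted, among them HOXA3, SIX4, LMX1B, MEIS1, ALX4, BARX2, SATB1, ZFHX4, TBX15 and TBX18. The number of members called higher ran from 4 to 7 and lower from 8 to 11 over all alternatives. Leaving out single libraries gave 4 to 7 higher and 8 to 10 lower, and without C1 the calls of HOXA5, HOXD8, PBX4 and MEIS2 were lost. With the replicate block 7 members were higher and 11 lower, beside 13.9% of all genes called in either direction, by adding HOXC6, LMX1A and CUX2, and it changed no other member's call. Over all genes 800 were called higher with the block, against 521 without, and 342 to 509 when a library was left out. No sign turned among the members described here. Asking 10 counts of every library removed 6 members. The cause of these shifts was not tested. Depth limits HOXA5, HOXB3, HOXC6, HOXD8, LMX1A and ALX4, which had fewer than 10 counts in C2 or T2.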

Other observations

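Homeobox genes outside the families above also moved in both directions. Of 27 measured genes of that list 2 were higher, 5 were lower and 20 did not pass, with a median log2 fold change of 0.20. Over all genes 4.62% were called higher and 5.24% lower. PRRX1, a factor of limb and connective tissue mesenchyme, rose from 105 and 72.8 CPM in control to 366 and 303 CPM in carcinoma, a log2 change of 1.91 (SE 0.22, edgeR adjusted p = 0.00704), in libraries where fibroblast markers were lower. POU2F3, the factor of tuft cells, rose from 3.69 and 3.71 CPM in control to 23.1 and 27.96 CPM in carcinoma, a log2 change of 2.78 (SE 0.26, edgeR adjusted p = 0.00430). PROX1, the factor that sets lymphatic endothelial identity, fell from 46.1 and 40.1 CPM in control to 6.27 and 4.46 CPM in carcinoma, a log2 change of −2.94 (SE 0.25, edgeR adjusted p = 0.00371), and it is also in the lymphatic marker list. EMX2 had a log2 change of −3.39 (SE 0.35, edgeR adjusted p = 0.00541) and MEOX2, a factor of vessels and muscle, one of −1.59 (SE 0.15, edgeR adjusted p = 0.00439). ZEB1, a repressor with a homeodomain, had −1.29 (SE 0.19, edgeR adjusted p = 0.0131), and HDX −1.11 (edgeR adjusted p = 0.0365), a call that was lost whichever library was left out. ZEB2 had −0.9987 (SE 0.19, edgeR adjusted p = 0.0308), just short of the fold threshold. It was called lower by DESeq2 and with the replicate block. MGA was the measured T-box gene outside the members, with a log2 fold change of −0.08 (adjusted p = 0.740 by edgeR).

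Myoepithelial markers had 6 of 10 genes measured, at 882 to 1000 CPM in control and 1038 to 1337 CPM in carcinoma. None was called by edgeR without the replicate block, but 2 were higher with it (KRT5 and OXTR) and 2 by DESeq2. At an unadjusted p under 0.05 by edgeR without the block, 3 were higher and 2 were lower (ITGA6 and TP63). The median log2 fold change over the list was 0.12. Adipocyte markers had 3 measured and none called by edgeR without the block (and 0 by DESeq2), but 1 higher with the block (PLIN4). Without the block the log2 fold changes were 1.26 for PLIN4, −0.25 for LPL and −0.84 for PPARG. Of these only PPARG was at an unadjusted p under 0.05 by edgeR. Nerve and Schwann cell markers had 5 measured and 1 lower (NGFR, at 0 in T2), or 2 lower with the block. Hair follicle and epidermis markers had 2 measured and 1 higher (KRT15, edgeR adjusted p = 0.0434, or 0.111 without C1), at 101 to 158 CPM in control and 315 to 606 CPM in carcinoma.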
